A study of Rattus norvegicus with 16 samples.

Results

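The 10 genes described here encode the receptors, the transcription factor, the feedback inhibitors and some known targets of interleukin-6 (IL-6) family signalling, chosen by name: Il6st, Il6ra, Osmr, Stat3, Socs3, Socs1, Cish, Ptpn1, Pim1 and Sbno2. They are 10 of the 21842 gene symbols counted in microglia, the resident macrophages of the brain. Of these, 9 were found by symbol and Il6ra was found under Il6r, for which RefSeq gives Il6ra as a synonym. All 10 passed the filter on low counts. The choice of the 10 was made with earlier results of these data known.

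RNA of microglia sorted from whole brains of male Wistar rats (Hsd/Cpb:WU) was sequenced in bulk, 4 libraries per group and 16 in all. The irradiated groups had received 14 Gy of X-rays and the sham groups a mock irradiation, and 6 weeks later each rat was injected intraperitoneally with lipopolysaccharide (LPS, an outer membrane molecule of bacteria that is sensed by innate immune cells) or with its vehicle, phosphate-buffered saline (PBS). The groups were thus irradiated LPS, irradiated PBS, sham LPS and sham PBS, with no genetic change in any of them, and the labels used here give no age. The sort gate took DAPI-negative cells of high CD11b and intermediate CD45. The labels do not name the animals behind the libraries, so each p-value reflects how far these libraries scatter, which may be technical.

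IL-6 family cytokines bind a receptor chain of their own (IL-6R for IL-6, OSMR for oncostatin M) that pairs with the shared chain gp130, the product of Il6st. Janus kinases attached to these chains then phosphorylate STAT3, which enters the nucleus and switches on genes, among them Socs3, whose product binds gp130 and its kinases and shuts the signal down. Microglia respond to IL-6 and, through Toll-like receptors, to LPS, which also leads to STAT3 activation by way of the cytokines it induces.

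Libraries held 18997145 to 62745496 counts with irradiation and LPS, 14309458 to 25015047 with irradiation and PBS, 16573558 to 19785105 with sham irradiation and LPS, and 16849603 to 22482126 with sham irradiation and PBS. Levels are CPM, the count scaled to the size of its library with TMM factors, and changes are log2 fold changes ± SE from edgeR over 13608 genes, called where the adjusted p was under 0.05. Microglial markers had the highest sum of the marker lists in every library, although the sum over 10 markers was 14578 to 18908 CPM with irradiation and LPS, 20622 to 26197 CPM with irradiation and PBS, 35932 to 40013 CPM with sham irradiation and LPS, and 45824 to 49692 CPM with sham irradiation and PBS. In the irradiated LPS library 1 the microglial sum of 14578 CPM stood beside 4269 CPM for border-associated macrophage markers. Siglech, on the microglial list, was barely counted in any group, at most 0.512 CPM in the irradiated LPS library 1, and had no count in any sham LPS library. The irradiated LPS library 1 stood apart from its group, with a neutrophil marker sum of 2269 CPM against 361 to 581 CPM in the other 3, and both irradiated libraries numbered 1 had the highest neuron marker sums of all libraries, 98 CPM with LPS and 65.9 CPM with PBS. Without both of them, LPS in sham rats moved 9 of the 10 genes past the test, against 10 with all libraries, and 6 were called for irradiation with PBS, against 5. The counts for LPS in irradiated rats (10), irradiation with LPS (5) and the difference between LPS responses (1) were as with all libraries. All these counts are over the 10 genes with Osmr included, which passed the filter on low counts only through the irradiated LPS libraries.

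Leaving Osmr aside, LPS changed all 9 other genes in both arms, 7 higher and 2 lower. Osmr was also higher with LPS, but it passed the filter on low counts only through the irradiated LPS libraries. The counts and medians in this paragraph and the next therefore leave it out. In irradiated rats 17% of all genes tested were called higher with LPS and 14.5% lower, and in sham rats 15.2% were called higher and 14.5% lower. The median log2 fold change of the 9 genes was 2.36 in irradiated rats, where that of all genes was -0.02, and 3.21 in sham rats, where that of all genes was -0.01. Since the genes were chosen with earlier results of these data known, these counts and medians are a description and no test against all genes. The genes that fell were those of the IL-6 receptor complex, Il6st and Il6r. Stat3, the inhibitors and the target genes rose.

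Irradiation changed fewer of them. In rats given LPS, irradiated libraries had 1 of the 9 genes called higher and 3 lower than sham libraries (15.1% and 12.6% of all genes), with a median of -0.07 over the 9 genes and 0.01 over all genes. In rats given PBS, 3 were called higher and 2 lower (11.5% and 9.91% of all genes), with a median of 0.24 over the 9 genes and 0.00 over all genes. The LPS response of 1 gene, Pim1, differed between irradiated and sham rats, a difference that was called lower for 0.647% and higher for 0.61% of all genes. The comparisons share groups, so their values stand side by side here and are not compared with each other as independent results.

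**Figure D1:**
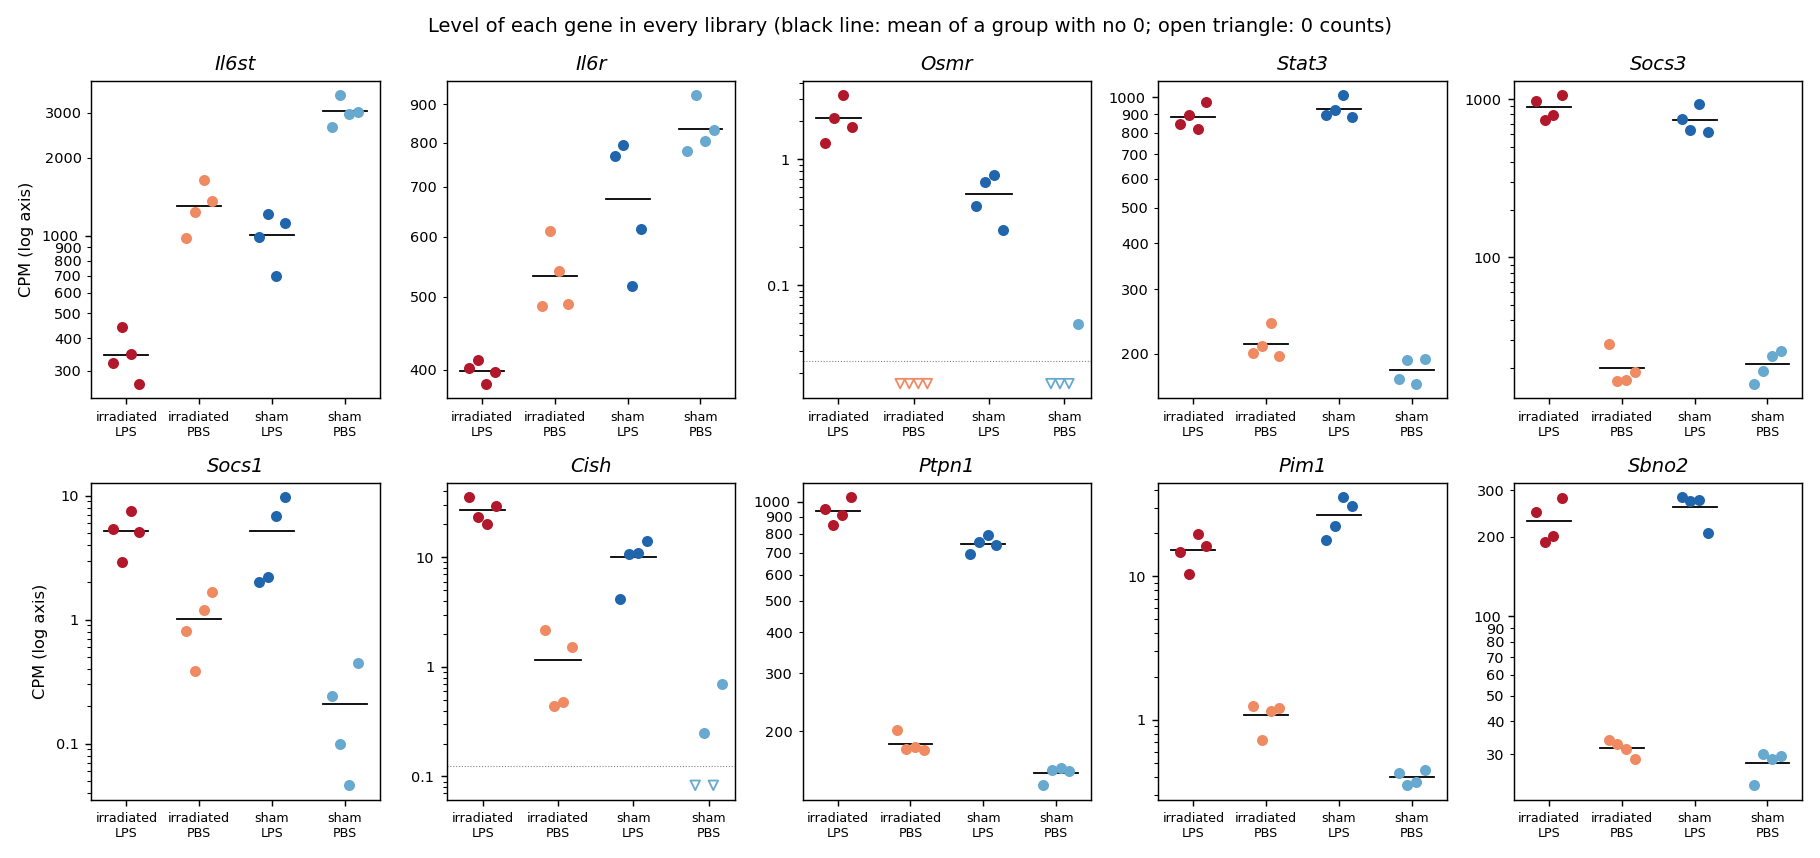
Level in CPM (log axis) of each of the 10 genes in all 16 libraries, with irradiated groups left of sham groups and LPS left of PBS within each arm. Il6st and Il6r were lowest in irradiated LPS libraries, and Stat3, Socs3, Socs1, Cish, Ptpn1, Pim1 and Sbno2 were higher in LPS than in PBS libraries. The share of all genes separated in this way was not computed. Osmr is shown but had few reads, nearly all of them in LPS libraries.

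Il6st (ENSRNOG00000013963), which encodes the signal-transducing chain gp130, fell with each treatment. It was counted at 322, 441, 347 and 267 CPM in the irradiated LPS libraries and at 979, 1236, 1646 and 1364 CPM in the irradiated PBS libraries. It stood at 984, 1212, 695 and 1116 CPM in the sham LPS libraries and at 2632, 3494, 2967 and 3019 CPM in the sham PBS libraries. All sham PBS libraries lay above all others, all irradiated LPS libraries lay below all others, and the irradiated PBS and sham LPS libraries overlapped.

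LPS lowered Il6st by 3.8-fold in irradiated rats (log2 fold change -1.92 ± 0.19, adjusted p = 9.28e-07) and by 3.02-fold in sham rats (-1.60 ± 0.19, adjusted p = 8.14e-06). Irradiation lowered it by 2.91-fold in rats given LPS (-1.54 ± 0.19, adjusted p = 9.58e-06) and by 2.32-fold in rats given PBS (-1.21 ± 0.18, adjusted p = 0.000152). The group means were 344 ± 72.5 CPM with irradiation and LPS and 3028 ± 355 CPM with sham irradiation and PBS (SD, n = 4 each), an 8.8-fold gap with groups that did not overlap. The LPS responses of the arms differed by -0.33 on the log2 scale (95% interval -0.87 to 0.22, adjusted p = 0.697), which did not pass the test. Beside this, the mean microglial marker sum was 2.8-fold lower with irradiation and LPS, 1.96-fold lower with irradiation and PBS and 1.23-fold lower with sham irradiation and LPS than with sham irradiation and PBS. In bulk RNA, fewer cells of a type and less RNA per cell cannot be told apart, and the part of this shift in the Il6st result was not tested.

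Il6r (ENSRNOG00000020811), which encodes the IL-6-binding chain, moved the same way by smaller steps. Its levels were 402, 412, 383 and 397 CPM with irradiation and LPS and 486, 612, 540 and 489 CPM with irradiation and PBS. They were 768, 796, 517 and 615 CPM with sham irradiation and LPS and 781, 925, 805 and 833 CPM with sham irradiation and PBS. The irradiated LPS libraries lay below all others, whereas the sham LPS libraries reached into the sham PBS range. Irradiation lowered Il6r by 1.69-fold in rats given LPS (-0.76 ± 0.11, adjusted p = 6.66e-05) and by 1.57-fold in rats given PBS (-0.65 ± 0.11, adjusted p = 0.000413). LPS lowered it by 1.33-fold in irradiated rats (-0.42 ± 0.11, adjusted p = 0.00931). In sham rats the LPS call (-0.31 ± 0.11, adjusted p = 0.048) was lost in 19 of 28 alternatives, DESeq2 among them (adjusted p = 0.0526), and without any of 12 single libraries, of which sham LPS 3 gave the highest adjusted p (0.161).

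Osmr (ENSRNOG00000033192), which encodes the receptor chain for oncostatin M, was near the limit of detection and passed the filter on low counts only through the irradiated LPS libraries, so no test is given for a comparison that uses them. It had 26, 131, 103 and 67 reads in these libraries (1.33, 2.12, 3.21 and 1.80 CPM) and none in the irradiated PBS libraries. It had 7, 12, 13 and 5 reads in the sham LPS libraries (0.425, 0.663, 0.745 and 0.275 CPM), and a single read in the sham PBS libraries. Every LPS library thus held Osmr reads while 7 of 8 PBS libraries held none.

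In irradiated rats the 327 reads pooled over the LPS group came to 2.17 CPM, at least 59.6-fold higher than with PBS, taking 3 counts over the whole PBS group (0.0364 CPM) as the floor. In sham rats, 37 reads with LPS stood against 1 with PBS, a ratio of 41.4 with an exact 95% interval of 6.98 to 1677 that covers counting error only (edgeR adjusted p = 0.00089). Among rats given LPS, the mean level was 4.01 times as high in irradiated as in sham libraries. The filter favours this gap and the one to the irradiated PBS libraries, since Osmr passed it only through the irradiated LPS libraries. Both gaps are descriptions and no support for a difference. No fold is given for irradiation with PBS, where both groups were at or under the floor. Osmr is known from astrocytes and endothelial cells, whose marker sums ran from 171 to 350 CPM and from 134 to 212 CPM with irradiation and LPS, and from 265 to 619 CPM and from 310 to 347 CPM with sham irradiation and LPS. These lists had 8 of 8 astrocyte and 7 of 9 endothelial and mural markers measured, and their genes did not move together. Flt1, an endothelial marker, had 9.28, 7.04, 15.6 and 14.7 CPM with irradiation and LPS and 1.82, 1.66, 5.22 and 1.10 CPM with sham irradiation and LPS. Gfap, an astrocyte marker, had 41.9, 7.04, 15.0 and 12.2 CPM with irradiation and LPS and 7.04, 2.76, 4.18 and 3.58 CPM with sham irradiation and LPS. Flt1 was thus higher in every irradiated LPS library, against the direction of its list's sum, whereas Pecam1, Tek and Cdh5 were lower in each of them. Slc1a3 made up most of the astrocyte sums. It had 238, 158, 270 and 134 CPM with irradiation and LPS and 453, 557, 233 and 436 CPM with sham irradiation and LPS. The part of these cells in the Osmr values was not tested.

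Stat3 (ENSRNOG00000019742), the transcription factor itself, rose with LPS to overlapping levels in both arms. Its levels were 847, 896, 822 and 972 CPM with irradiation and LPS and 202, 210, 242 and 197 CPM with irradiation and PBS. They were 895, 926, 1012 and 884 CPM with sham irradiation and LPS and 171, 192, 166 and 194 CPM with sham irradiation and PBS. LPS and PBS libraries were far apart in both arms, and the irradiated LPS libraries overlapped the sham LPS libraries.

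LPS raised Stat3 by 4.15-fold in irradiated rats (2.05 ± 0.09, adjusted p = 4.33e-11) and by 5.14-fold in sham rats (2.36 ± 0.09, adjusted p = 4.31e-12). The difference between these responses was -0.31 (95% interval -0.56 to -0.06) and did not pass over all genes (adjusted p = 0.284). Irradiation gave -0.07 ± 0.08 in rats given LPS (adjusted p = 0.588), a value of the other sign with library totals alone (0.0026). In rats given PBS it gave 0.24 ± 0.08, with all irradiated libraries above all sham libraries. That value missed the threshold (adjusted p = 0.0542) and passed it in 8 of 28 alternatives, DESeq2 (0.0379), library totals alone (0.00119) and the fit without irradiated PBS 4 (0.0471) among them.

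**Figure D2:**
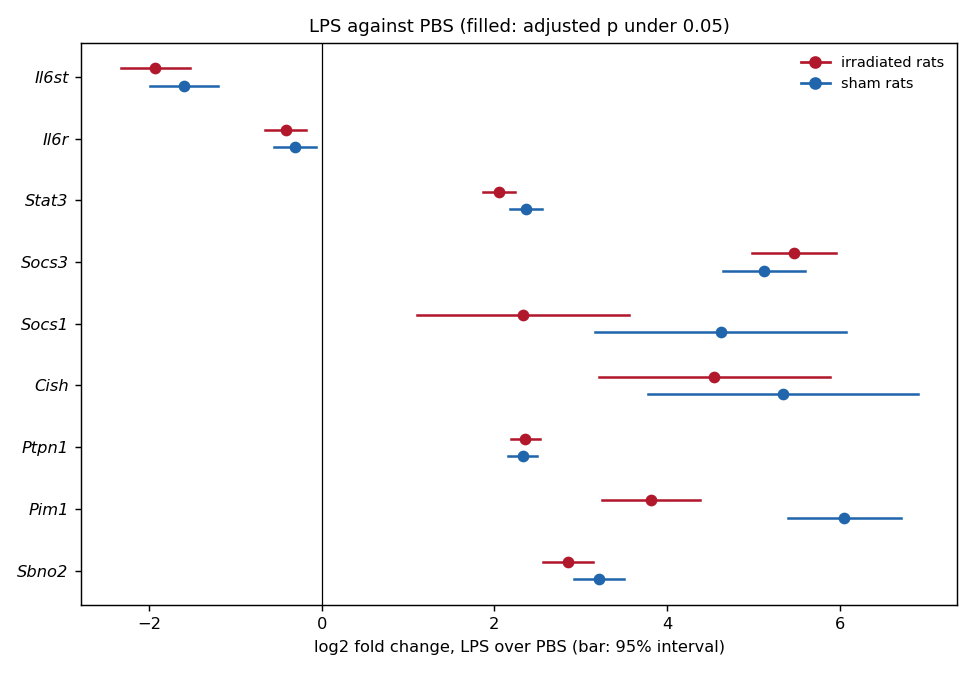
Log2 fold change of LPS over PBS for 9 of the 10 genes in irradiated rats (red) and sham rats (blue), with 95% intervals; filled points had an adjusted p under 0.05. Osmr is left out because its PBS libraries held 1 read in all, and Pim1 is the gene whose 2 intervals do not meet.

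Socs3 (ENSRNOG00000063373), the STAT3-induced inhibitor of gp130 signalling, was among the strongest responders. It reached 978, 739, 793 and 1054 CPM with irradiation and LPS, against 28.5, 16.5, 16.7 and 18.8 CPM with irradiation and PBS. It reached 750, 635, 936 and 621 CPM with sham irradiation and LPS, against 15.9, 19.1, 23.7 and 25.7 CPM with sham irradiation and PBS. Neither pair of irradiated and sham groups was separated, and the LPS groups did not overlap the PBS groups.

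LPS raised Socs3 by 44.3-fold in irradiated rats (5.47 ± 0.23, adjusted p = 1.04e-10) and by 34.8-fold in sham rats (5.12 ± 0.22, adjusted p = 1.49e-10). The responses differed by 0.35 (95% interval -0.22 to 0.92, adjusted p = 0.693). Irradiation gave 0.28 ± 0.19 with LPS (adjusted p = 0.311) and -0.07 ± 0.20 with PBS (adjusted p = 0.842), and the second of these turned to 0.09 with library totals alone and had either sign when single libraries were left out.

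Socs1 (ENSRNOG00000002568), an inhibitor of Janus kinases best known from interferon signalling, was a low-count gene. It had 5.38, 2.92, 7.54 and 5.13 CPM with irradiation and LPS and 0.809, 0.388, 1.20 and 1.68 CPM with irradiation and PBS. It had 2.00, 2.21, 6.82 and 9.75 CPM with sham irradiation and LPS and 0.243, 0.0997, 0.046 and 0.445 CPM with sham irradiation and PBS. The last 4 values rest on 4, 2, 1 and 9 reads.

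LPS raised Socs1 by 5.04-fold in irradiated rats (2.33 ± 0.59, adjusted p = 0.00504) and by 24.6-fold in sham rats (4.62 ± 0.69, adjusted p = 6.82e-05). The difference of -2.29 ± 0.87 had a wide interval (-4.13 to -0.45) and did not pass over all genes (adjusted p = 0.277). In rats given PBS, irradiated libraries averaged 1.02 ± 0.550 CPM and sham libraries 0.209 ± 0.179 CPM (SD, n = 4 each), a change of 2.30 ± 0.68 (adjusted p = 0.0218) although the groups overlapped. This call was lost with limma voom (adjusted p = 0.146), in the test against a fold of 1.5 (0.0876) and without sham PBS 2 (0.0689), sham PBS 3 (0.0699) or irradiated PBS 4 (0.0761). With LPS the arms averaged 5.24 ± 1.89 and 5.2 ± 3.76 CPM in irradiated and sham rats (0.01 ± 0.54, adjusted p = 0.993), a value of either sign when single libraries were left out.

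Cish (ENSRNOG00000029543), an inhibitor that STAT5 induces, was barely counted in sham PBS libraries and rose with LPS in both arms. It had 35.5, 23.2, 20.2 and 29.3 CPM with irradiation and LPS and 2.18, 0.444, 0.481 and 1.53 CPM with irradiation and PBS. It had 4.13, 10.7, 11.0 and 14.1 CPM with sham irradiation and LPS, and in the sham PBS libraries 0, 5, 0 and 14 reads (0, 0.249, 0 and 0.693 CPM). Every irradiated LPS library lay above every sham LPS library.

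LPS raised Cish by 23.3-fold in irradiated rats (4.55 ± 0.63, adjusted p = 4.35e-05) and by 40.6-fold in sham rats (5.34 ± 0.73, adjusted p = 5.36e-05). In rats given LPS the change with irradiation was 1.44 ± 0.53 (2.71-fold), with group means of 27.0 ± 6.79 CPM in irradiated and 9.97 ± 4.19 CPM in sham libraries. It missed the threshold (adjusted p = 0.0565) and passed it in 8 of 28 alternatives, limma voom among them (adjusted p = 0.000563), and without any of 4 single PBS libraries (0.0297 to 0.0483). In rats given PBS the change was 2.23 ± 0.78 (adjusted p = 0.0547), which passed in 7 of 28 alternatives and had overlapping groups. Without sham PBS 4, which held 14 of the 19 sham PBS reads, it was 3.67 (adjusted p = 0.0105), and it also passed without sham LPS 1 (0.0411), irradiated PBS 2 (0.0401) or irradiated PBS 3 (0.0416). The responses to LPS differed by -0.80 ± 0.94 (95% interval -2.81 to 1.21, adjusted p = 0.827).

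Promoter windows of Cish, Socs1, Socs3 and Pim1 are shown. These genes rose together with Stat3 under LPS and are textbook targets of STAT factors. RefSeq promoter windows of 300 bases, from 250 before to 50 after the annotated start, were read for all 10 genes on build GRCr8, which is not the build of the count files (mRatBN7.2). TTCNNNGAA, the palindrome that STAT3 and STAT5 bind and which reads the same on both strands, was in 2 of 10 windows. It occurred in 8.88% of all 33365 rat promoter windows. Cish held 4 matches, starting 241, 230, 136 and 119 bases before the start, and only 0.00599% of all windows (2 windows) held 4 or more. Socs1 held 1 match, 196 bases before the start. The same palindrome with a spacing of 4 bases in place of 3 was in none of the 10 windows and in 7.26% of all windows. The windows of Socs3 and Pim1 held neither form. Both of these windows run into coding sequence (from atggtcacc in Socs3 and atgctcctg in Pim1), so they may not hold the promoter in use. The same holds for the windows of Il6st (from atgtccgca) and Il6r (from atgctggcc), which are not shown. The annotated starts were not checked against the reads. A match is a run of letters and not a measured binding site, and a window without one says nothing about STAT binding elsewhere. Capitals mark the matches in the sequences that follow, all on the strand of the gene and written 5′ to 3′.
Cish, chr8:116850719-116851018 (+ strand): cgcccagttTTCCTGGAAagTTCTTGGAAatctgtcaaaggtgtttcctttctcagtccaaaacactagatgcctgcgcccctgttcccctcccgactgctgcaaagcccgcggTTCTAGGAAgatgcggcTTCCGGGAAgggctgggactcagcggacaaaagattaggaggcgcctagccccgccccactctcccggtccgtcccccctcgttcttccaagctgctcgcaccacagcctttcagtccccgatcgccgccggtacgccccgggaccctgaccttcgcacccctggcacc
Socs1, chr10:5389324-5389623 (+ strand): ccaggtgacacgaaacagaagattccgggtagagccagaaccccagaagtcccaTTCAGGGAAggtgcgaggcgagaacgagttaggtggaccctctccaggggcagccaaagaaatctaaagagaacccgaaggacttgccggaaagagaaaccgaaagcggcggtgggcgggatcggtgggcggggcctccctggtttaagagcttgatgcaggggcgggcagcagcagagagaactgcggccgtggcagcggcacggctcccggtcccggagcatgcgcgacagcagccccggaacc
Socs3, chr10:103694719-103695018 (- strand): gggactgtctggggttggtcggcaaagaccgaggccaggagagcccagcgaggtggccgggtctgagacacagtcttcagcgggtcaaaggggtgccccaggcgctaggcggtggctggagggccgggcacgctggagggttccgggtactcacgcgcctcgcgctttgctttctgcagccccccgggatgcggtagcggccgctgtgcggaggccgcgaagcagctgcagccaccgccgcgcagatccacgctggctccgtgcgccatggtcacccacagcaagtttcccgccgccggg
Pim1, chr20:7556246-7556545 (+ strand): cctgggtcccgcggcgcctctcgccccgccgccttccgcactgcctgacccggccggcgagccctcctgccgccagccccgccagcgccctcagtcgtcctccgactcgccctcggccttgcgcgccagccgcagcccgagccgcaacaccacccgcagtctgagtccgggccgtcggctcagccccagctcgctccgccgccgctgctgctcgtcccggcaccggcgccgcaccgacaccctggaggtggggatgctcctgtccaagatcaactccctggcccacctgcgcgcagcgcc

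**Figure D3:**
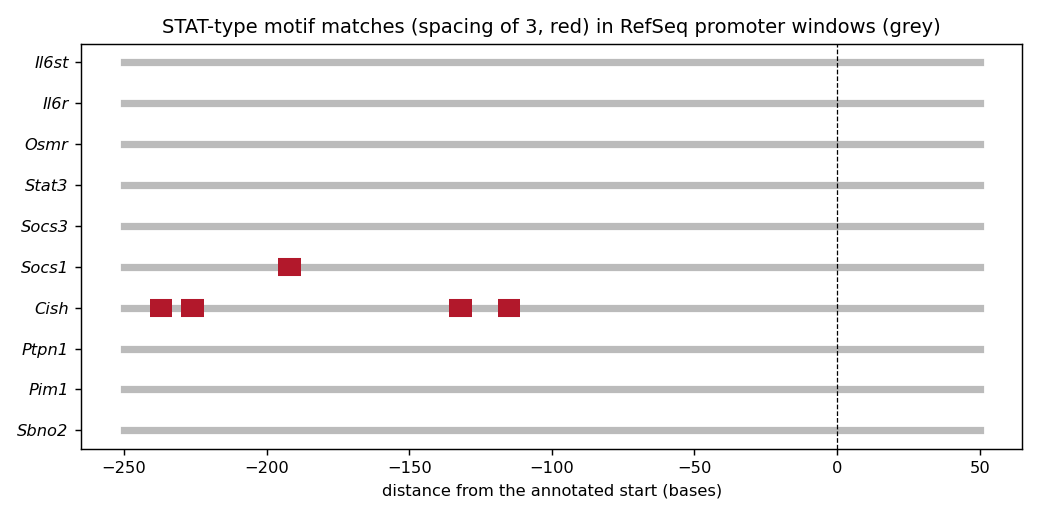
Matches of the STAT-type motif with a spacing of 3 (red) in the RefSeq promoter windows of the 10 genes (grey), as distance in bases from the annotated start (dashed line). Cish had 4 matches and Socs1 had 1, and the other 8 windows had none. The windows of Socs3, Pim1, Il6st and Il6r run into coding sequence and may not hold the promoter in use.

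Ptpn1 (ENSRNOG00000010574) encodes the tyrosine phosphatase PTP1B, which removes phosphate from Janus kinases and so damps cytokine signals. Its levels were 949, 851, 915 and 1034 CPM with irradiation and LPS and 201, 176, 179 and 176 CPM with irradiation and PBS. They were 696, 754, 792 and 740 CPM with sham irradiation and LPS and 137, 152, 154 and 151 CPM with sham irradiation and PBS. No 2 of the 4 groups overlapped, in the order irradiated LPS, sham LPS, irradiated PBS and sham PBS from high to low.

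LPS raised Ptpn1 by 5.12-fold in irradiated rats (2.36 ± 0.08, adjusted p = 1.94e-12) and by 5.02-fold in sham rats (2.33 ± 0.08, adjusted p = 2.4e-12). The difference of 0.03, which turned to -0.053 with library totals alone, had a 95% interval of -0.20 to 0.25 (adjusted p = 0.958), so a gap in response beyond 0.25 on the log2 scale lay outside the interval. Irradiation raised it by 1.26-fold with LPS (0.33 ± 0.08, adjusted p = 0.00278) and by 1.23-fold with PBS (0.30 ± 0.08, adjusted p = 0.00757). These steps were smaller than the 1.5-fold of the stricter test, which called neither.

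Pim1 (ENSRNOG00000000529), a serine/threonine kinase induced by STAT3 and STAT5, was the gene whose LPS response differed between the arms. It had 14.7, 10.3, 19.8 and 16.4 CPM with irradiation and LPS and 1.24, 0.721, 1.15 and 1.20 CPM with irradiation and PBS. It had 18, 22.3, 35.7 and 30.7 CPM with sham irradiation and LPS and 0.426, 0.349, 0.368 and 0.445 CPM with sham irradiation and PBS. The irradiated PBS libraries were all above the sham PBS libraries, and with LPS 3 of 4 irradiated libraries were below all sham libraries.

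LPS raised Pim1 by 14-fold in irradiated rats (3.81 ± 0.27, adjusted p = 1.15e-08) and by 66.5-fold in sham rats (6.05 ± 0.31, adjusted p = 2.02e-10). The difference between these responses was -2.24 ± 0.40 (95% interval -3.08 to -1.41, adjusted p = 0.00714). It ranged from -2.39 to -2.07 over 27 alternatives and lost its call with limma voom (adjusted p = 0.263) and in the test against a fold of 1.5 (0.0562). Irradiation lowered Pim1 by 1.74-fold in rats given LPS (-0.80 ± 0.23, adjusted p = 0.0128), a call lost without sham LPS 3 (0.0589) and in the test against a fold of 1.5 (0.361). It raised Pim1 by 2.72-fold in rats given PBS (1.44 ± 0.32, adjusted p = 0.00348), a call lost with limma voom (0.241). The sham PBS values rest on 7, 7, 8 and 9 reads per library.

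Sbno2 (ENSRNOG00000013987), which STAT3 induces downstream of IL-10 in macrophages and whose product restrains NF-kB, rose with LPS. Its levels were 248, 191, 201 and 281 CPM with irradiation and LPS and 34.1, 32.9, 31.6 and 28.9 CPM with irradiation and PBS. They were 282, 272, 276 and 207 CPM with sham irradiation and LPS and 22.9, 30.3, 28.9 and 29.5 CPM with sham irradiation and PBS. LPS raised it by 7.23-fold in irradiated rats (2.85 ± 0.14, adjusted p = 1.09e-10) and by 9.28-fold in sham rats (3.21 ± 0.14, adjusted p = 2.52e-11). Irradiated and sham groups overlapped with LPS (-0.17 ± 0.13, adjusted p = 0.352) and with PBS (0.19 ± 0.13, adjusted p = 0.35), and the responses differed by -0.36 (95% interval -0.74 to 0.02, adjusted p = 0.465).

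**Figure D4:**
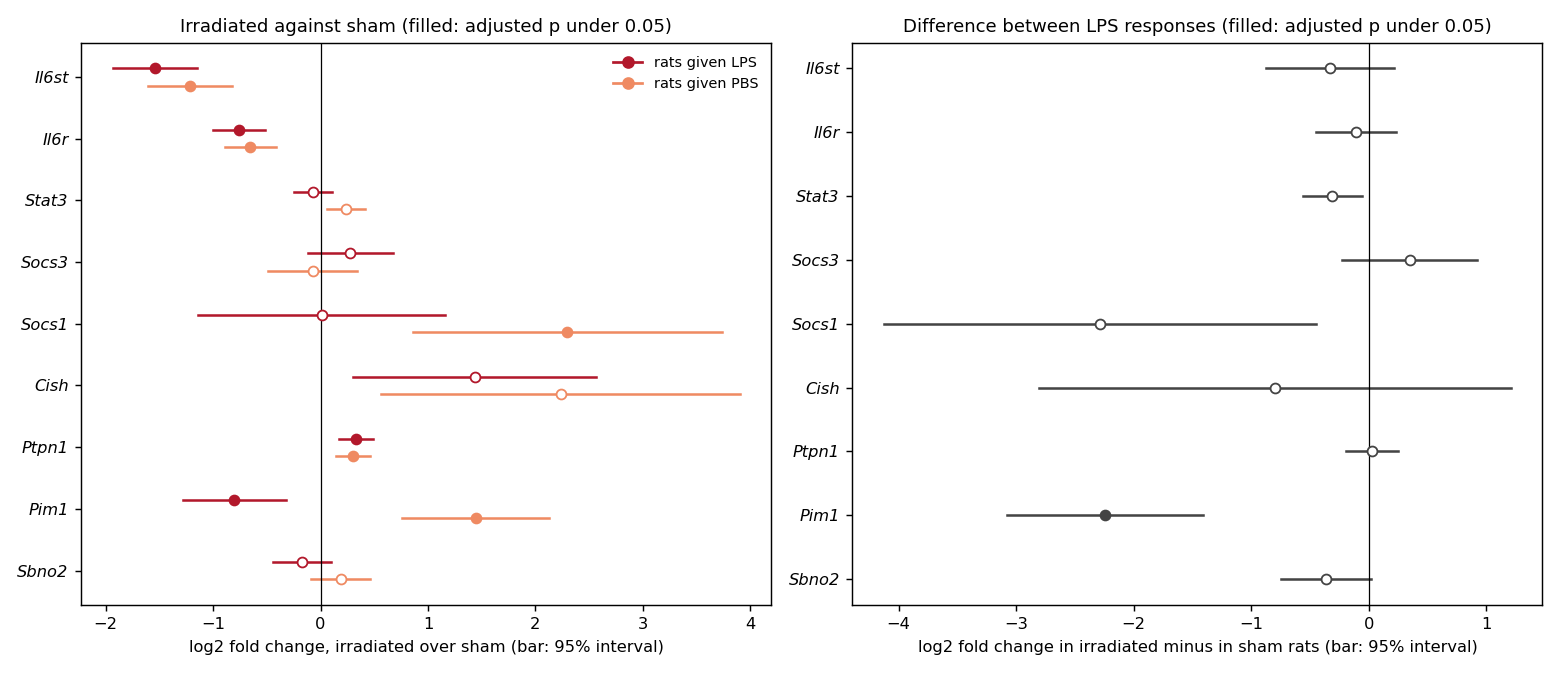
Left, log2 fold change of irradiated over sham libraries for 9 of the 10 genes in rats given LPS (red) and PBS (orange); right, the LPS response in irradiated minus that in sham rats; bars are 95% intervals and filled points had an adjusted p under 0.05. Il6st and Il6r fell with irradiation under both injections, and Pim1 changed direction between them.

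Markers of other cell types differed between the groups too. T and NK cell markers, of which 11 of 14 were measured, summed to 463 to 921 CPM with irradiation and LPS, 96.3 to 187 CPM with irradiation and PBS, 18.5 to 164 CPM with sham irradiation and LPS, and 14.2 to 23.2 CPM with sham irradiation and PBS. None of the 11 was at 0 in every library of a group. Prf1, which encodes perforin, made up much of the sum, with 513, 215, 267 and 502 CPM with irradiation and LPS and 35.0, 15.7, 25.7 and 29.1 CPM with irradiation and PBS. Cd2 had 1.54 to 4.99 CPM with irradiation and LPS against 3.55 to 7.73 CPM with irradiation and PBS, so the members did not move together. B cell markers, 6 of 6 measured, summed to 29.7 to 62.5 CPM with irradiation and LPS, 95.6 to 147 CPM with irradiation and PBS, 7.95 to 9.80 CPM with sham irradiation and LPS, and 54.6 to 83.1 CPM with sham irradiation and PBS. Their sums were thus lower with LPS in both arms, and Pax5 held reads in 1 of the 16 libraries, from the irradiated LPS group. The sham LPS library 1 had a T and NK cell marker sum of 18.5 CPM, inside the sham PBS range. In it Cish (4.13 CPM), Pim1 (18 CPM) and Socs1 (2.00 CPM) were above every sham PBS library and lowest among the sham LPS libraries. The part of T and NK cells in these values was not tested. Border-associated macrophage markers, 9 of 9 measured, summed to 3113 to 4269 CPM with irradiation and LPS, 1251 to 1540 CPM with irradiation and PBS, 471 to 1033 CPM with sham irradiation and LPS, and 380 to 440 CPM with sham irradiation and PBS. Clec10a made up much of the first of these sums, with 1861 to 2566 CPM against 372 to 465 CPM with irradiation and PBS. Cbr2 had 54.2 to 55.7 CPM and 70.1 to 83.2 CPM in these 2 groups, so the members of this list did not move together. Monocyte markers, 10 of 10 measured, summed to 596 to 969 CPM with irradiation and LPS, 422 to 512 CPM with irradiation and PBS, 291 to 399 CPM with sham irradiation and LPS, and 149 to 233 CPM with sham irradiation and PBS. They did not move together either. Plac8 had 249 to 388 CPM with irradiation and LPS and 88.6 to 156 CPM with irradiation and PBS. Itga4 had 22.5 to 52.1 CPM and 56.9 to 82.8 CPM in these groups. Chil3, on the monocyte list and counted under the symbol Chi3l3, was at 0 in the irradiated PBS, sham LPS and sham PBS groups. The part of these cells in the differences between irradiated and sham rats was not tested.

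Around the 10 genes, the pathway was described by 6 lists written from general knowledge, with earlier results of these data known. Their counts are therefore a description and no test against all genes. Of the IL-6 family ligands, 6 of 10 passed the filter, and with LPS 3 rose and none fell in both irradiated and sham rats. Over all genes 17% were called higher and 14.5% lower with LPS in irradiated rats, and 15.2% and 14.5% in sham rats. Osm, which encodes oncostatin M, the ligand of OSMR, rose by 1.51 ± 0.20 in irradiated rats (adjusted p = 1.84e-05) and by 1.75 ± 0.21 in sham rats (adjusted p = 5.49e-06). Ebi3 and Il27 encode the chains of IL-27, and Ebi3 rose by 3.45 ± 0.23 in irradiated rats and by 1.94 ± 0.23 in sham rats. Il27 rose by 1.38 ± 0.27 in irradiated rats and by 1.12 ± 0.27 in sham rats. Il6 itself had 12.9, 12.4, 10.2 and 11.4 CPM with irradiation and LPS and 5.91, 3.39, 10.4 and 7.29 CPM with irradiation and PBS. It had 16.4, 27.1, 28.4 and 22.9 CPM with sham irradiation and LPS and 27.3, 13.3, 14.6 and 10.5 CPM with sham irradiation and PBS. Its LPS change did not pass in irradiated rats (0.79 ± 0.30, adjusted p = 0.0581) or in sham rats (0.53 ± 0.30, adjusted p = 0.2), and in sham rats it passed without sham PBS 1 (adjusted p = 0.0274). Irradiation lowered Il6 with LPS (-1.02 ± 0.30, adjusted p = 0.0167) and with PBS (-1.27 ± 0.31, adjusted p = 0.00595).

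Ebi3 also rose with irradiation, by 2.57 ± 0.22 with LPS (adjusted p = 1.94e-07) and by 1.05 ± 0.22 with PBS (adjusted p = 0.00245). Its levels were 155, 119, 131 and 226 CPM with irradiation and LPS and 14.4, 13.5, 14.7 and 15.2 CPM with irradiation and PBS. They were 16, 26, 36.3 and 28.4 CPM with sham irradiation and LPS and 5.72, 7.48, 8.10 and 6.48 CPM with sham irradiation and PBS. It was the ligand gene whose LPS response was larger in irradiated rats, by 1.51 ± 0.31 (adjusted p = 0.0203). This call was lost without sham PBS 3 (0.0559), without both irradiated libraries numbered 1 (0.0557) and in the test against a fold of 1.5 (0.23).

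Among other receptor chains of the family 2 of 5 passed the filter. Lifr, the chain for leukemia inhibitory factor, rose with LPS by 3.60 ± 0.69 in irradiated rats (adjusted p = 0.000597) and by 3.62 ± 0.72 in sham rats (adjusted p = 0.000939), at 3.33 to 14 CPM against 0.166 to 1.37 CPM in irradiated rats and 3.20 to 6.43 CPM against 0 to 0.669 CPM in sham rats. Il11ra1 did not pass in sham rats (-0.42 ± 0.22, adjusted p = 0.159), although it did without sham LPS 2 (adjusted p = 0.0276).

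Of the Janus kinases and other STATs 7 of 10 were tested. With LPS 5 rose and 1 fell in both arms. Shares of all genes called higher and lower were 17% and 14.5% in irradiated rats and 15.2% and 14.5% in sham rats. The count that fell is near these shares and is no result about the list. Stat5b rose by 1.03 ± 0.09 in irradiated rats (adjusted p = 1.96e-07) and by 0.87 ± 0.09 in sham rats (adjusted p = 1.98e-06), and Jak2 rose by 1.16 ± 0.17 in irradiated rats and by 0.67 ± 0.17 in sham rats. Tyk2 changed by -0.82 ± 0.19 in irradiated rats (adjusted p = 0.00287) and by -0.54 ± 0.19 in sham rats (adjusted p = 0.0404). The sham call for Tyk2 was lost without any of 5 single libraries, with adjusted p between 0.0623 and 0.133, and with limma voom (0.0538) and a fit on the compared groups alone (0.0528). It was also lost with a replicate block (0.0519) and in the test against a fold of 1.5 (0.971). Stat2, a partner in type I interferon signalling, rose further with LPS in irradiated rats (1.37 ± 0.11) than in sham rats (0.70 ± 0.11). The call on the difference of 0.67 ± 0.16 (adjusted p = 0.0455) was lost without any of 12 single libraries, with library totals alone (0.062) and without robust moderation (0.0535). It was also lost with a replicate block (0.0539), without both irradiated libraries numbered 1 (0.11) and in the test against a fold of 1.5. Irradiation raised 3 of the 7 with LPS and 2 with PBS and lowered none. Shares of all genes called higher and lower with irradiation were 15.1% and 12.6% with LPS and 11.5% and 9.91% with PBS. Stat4 rose with irradiation by 0.67 ± 0.11 with LPS (adjusted p = 0.000154) and by 0.53 ± 0.11 with PBS (adjusted p = 0.0019).

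Of 14 other inhibitors of JAK-STAT signalling 5 rose and 2 fell with LPS in irradiated rats, and 6 rose and 2 fell in sham rats. The phosphatase gene Ptpn2 rose by 0.62 ± 0.09 in irradiated rats and by 0.43 ± 0.09 in sham rats, and Ptprc rose by 0.37 ± 0.08 in irradiated rats and by 0.44 ± 0.08 in sham rats. Pias3, which encodes a direct inhibitor of STAT3, changed by -1.03 ± 0.15 (adjusted p = 3.19e-05) in irradiated rats and by -0.63 ± 0.15 (adjusted p = 0.00302) in sham rats. Irradiation raised 2 and lowered 3 with LPS, and raised 2 and lowered 1 with PBS. Over all genes the shares called higher and lower were 17% and 14.5% with LPS in irradiated rats, 15.2% and 14.5% with LPS in sham rats, 15.1% and 12.6% with irradiation in rats given LPS, and 11.5% and 9.91% in rats given PBS. The irradiation counts of these inhibitors are near these shares and are no result about the list. Socs6 fell in all 4 of these comparisons, by between 0.37 and 0.56 on the log2 scale.

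Receptors outside the family that signal through STAT3 or STAT5 were split. Of 13 tested, 5 rose and 3 fell with LPS in irradiated rats and 6 rose and 4 fell in sham rats, and irradiation raised 5 and lowered 2 with LPS and raised 4 and lowered 2 with PBS. These counts stand beside the shares of all genes given above for the same comparisons, and the counts of lowered receptors with irradiation are near them. Csf2rb, the shared chain of the GM-CSF and IL-3 receptors, rose with LPS by 2.73 ± 0.18 in irradiated and 3.08 ± 0.19 in sham rats, and Il4r rose by 2.62 ± 0.18 in irradiated and 2.59 ± 0.18 in sham rats. Csf2ra, the GM-CSF-binding chain, rose with irradiation by 1.47 ± 0.10 with LPS (adjusted p = 5.77e-09) and by 1.43 ± 0.10 with PBS (adjusted p = 1.38e-08). Il2rg, the common gamma chain typical of lymphocytes, rose with irradiation by 2.72 ± 0.24 with LPS and by 2.44 ± 0.24 with PBS, beside the T and NK cell sums given for the same libraries. Il7r fell with irradiation by 1.42 on the log2 scale with LPS (adjusted p = 1.88e-08) and by 1.17 with PBS (adjusted p = 2.64e-07).

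Of 24 textbook STAT3 target genes 21 were tested. With LPS 17 rose in irradiated rats and 20 in sham rats, and with irradiation 9 rose in rats given LPS and 11 in rats given PBS, with none falling in any of these comparisons. Over all genes 17%, 15.2%, 15.1% and 11.5% were called higher in these comparisons, in the same order, and 14.5%, 14.5%, 12.6% and 9.91% lower. The median log2 fold change of the list was 1.64 for LPS in irradiated rats, 2.19 for LPS in sham rats, 0.50 for irradiation with LPS and 0.91 for irradiation with PBS. That of all genes was between -0.02 and 0.01 in these comparisons. Many of these genes answer to NF-kB and other factors as well as to STAT3. Zfp36, whose product degrades cytokine mRNA, rose with LPS by 2.80 ± 0.12 in irradiated and 3.06 ± 0.13 in sham rats. Bcl2l1, a survival gene, rose by 1.42 ± 0.12 in irradiated and 1.64 ± 0.12 in sham rats. Batf rose with LPS by 2.61 ± 0.19 in irradiated and 3.23 ± 0.21 in sham rats, and with irradiation by 1.80 ± 0.18 with LPS (adjusted p = 7.76e-07) and 2.42 ± 0.21 with PBS (adjusted p = 2.32e-07).

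Fgl2, which encodes a fibrinogen-like immune regulator, rose with both treatments. It was at 1192, 1163, 1478 and 1340 CPM with irradiation and LPS and at 329, 308, 272 and 227 CPM with irradiation and PBS. It was at 113, 239, 267 and 205 CPM with sham irradiation and LPS and at 48.2, 44.4, 33.2 and 54.5 CPM with sham irradiation and PBS. Irradiation raised it by 2.65 ± 0.22 with LPS (adjusted p = 3.29e-07) and by 2.66 ± 0.22 with PBS (adjusted p = 5.55e-07). Il1rn, which encodes the IL-1 receptor antagonist, rose with irradiation by 2.89 ± 0.46 with LPS (adjusted p = 0.000303) and by 3.57 ± 0.57 with PBS (adjusted p = 0.000399), and Timp1 rose by 1.39 ± 0.26 with LPS (adjusted p = 0.000594) and by 1.61 ± 0.28 with PBS (adjusted p = 0.000381). The LPS response differed between the arms for Hif1a, higher by 0.77 ± 0.12 in irradiated rats (adjusted p = 0.00392), and for Bcl3, lower by a difference of -1.61 ± 0.35 (adjusted p = 0.0293). The Bcl3 call was lost with limma voom (adjusted p = 0.213) and without any of 9 single libraries, with adjusted p between 0.0508 and 0.0885. It was also lost without both irradiated libraries numbered 1 (0.0874) and in the test against a fold of 1.5 (0.272). Fos, an immediate early gene, rose with irradiation in rats given PBS by 1.73 ± 0.35 (adjusted p = 0.0018).

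**Figure D5:**
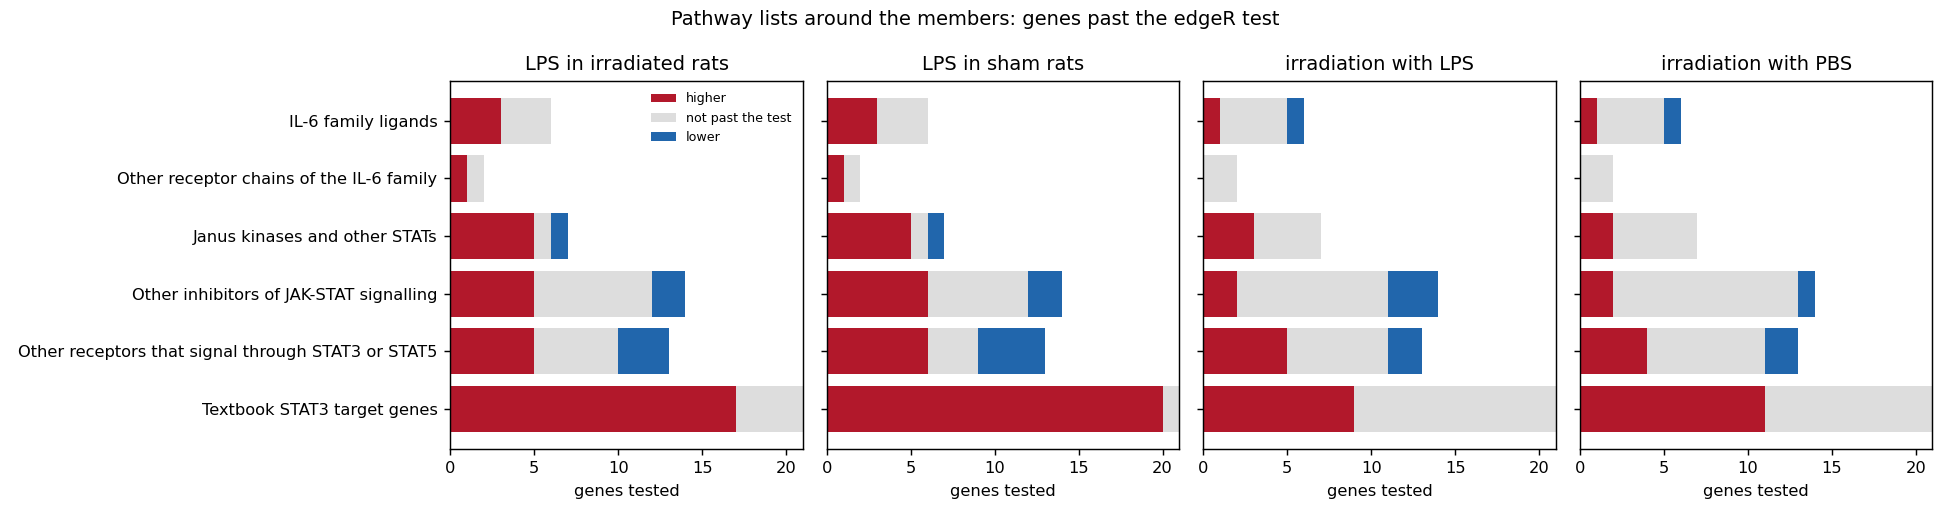
Number of genes of each of the 6 pathway lists that were higher (red), lower (blue) or not past the edgeR test (grey), in 4 comparisons. Of the 21 STAT3 target genes 17 and 20 were higher with LPS in irradiated and sham rats, and 9 and 11 were higher with irradiation in rats given LPS and PBS. Over all genes the shares called higher were 17%, 15.2%, 15.1% and 11.5% in the same order.

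The genes most like Socs3 and Stat3 over the 16 libraries were found by the root mean square difference of log2 CPM, centred on the sham PBS mean, among 7948 genes. Nearest to Socs3 were Fkbp5 (0.796), Strip2 (0.831), Cxcl10 (0.990), Il18rap (1.09) and AC128848.1 (1.10). Centred levels of Socs3 were 5.40 with irradiation and LPS, -0.08 with irradiation and PBS and 5.12 with sham irradiation and LPS, and those of Fkbp5 were 4.29 with irradiation and LPS, 0.26 with irradiation and PBS and 4.39 with sham irradiation and LPS. Nearest to Stat3 were Irf1 (0.229), St3gal1 (0.237), Atic (0.264), Crem (0.269) and Litaf (0.286). Centred levels of Stat3 were 2.29 with irradiation and LPS, 0.24 with irradiation and PBS and 2.36 with sham irradiation and LPS, and those of Irf1 were 2.43, 0.08 and 2.50 in these groups. These distances describe likeness over libraries that share the LPS contrast and carry no test.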

How the data were processed

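The authors deposited raw counts of reads for each Ensembl gene, made with HTSeq 2.0.2 after FastQC 0.11.9 and fastp 0.23.2 on the rat build mRatBN7.2, per the submitters' processing notes. Sources used here give neither the aligner nor the annotation release nor the strand setting, and reads of overlapping genes may be shared. Of 30560 gene IDs, 6518 had no symbol. A second deposited table of counts summed per symbol (21842 symbols) was compared with the single files, and 0 of 349472 cells differed.

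A quasi-likelihood model with 1 coefficient per group was fitted to all 16 libraries in edgeR 4.0.16 under R 4.3.3, with TMM scaling, the filterByExpr filter and robust moderation. The common biological coefficient of variation was 0.289. P-values were adjusted by Benjamini-Hochberg over 13608 genes and called under 0.05, each SE was taken as the log2 fold change divided by the square root of F, and log2 CPM used a prior count of 2. The interaction is the LPS effect in irradiated minus that in sham rats. In the 24 pairs of replicate libraries r was 0.939 to 0.971 and chi-square per degree of freedom 19.2 to 75.1, more than sampling noise. The method was tested on simulated data.

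The members and lists were chosen with earlier results of these data known. Up to 4 tested genes of each pathway list with the smallest p for LPS in sham rats, and up to 4 more for irradiation with PBS, could be named, and of these a value is given mainly where the gene was called. Hif1a falls outside this rule and was named after its values were seen. Genes were called alike by the root mean square difference among genes whose mean log2 CPM was 3 or more. Alternatives were DESeq2 1.42.0, limma 3.58.1 voom with weighted samples, other scalings, looser and stricter filters, a replicate block, no robust moderation, counts per symbol, a fit of the compared groups alone, a test against a fold of 1.5 and leaving out libraries. Promoter windows came from a RefSeq table of build GRCr8. Protein sequences and transcript lengths were not used here, so levels are not compared between genes.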

Additional observations from a re-analysis of the deposited data

Results flagged for a closer look

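Pim1 rose less with LPS in irradiated than in sham rats, by a difference of -2.24 on the log2 scale (edgeR adjusted p = 0.00714), which makes it a gene whose LPS effect differed between the arms. The difference lies both in a higher level with PBS in irradiated rats (1.08 ± 0.242 CPM, against 0.397 ± 0.0459 CPM in sham rats) and in a lower level with LPS (15.3 ± 3.93 CPM, against 26.6 ± 8.00 CPM in sham rats; SD, n = 4 each).

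Among 39 groups of 4 libraries, 3 held a value far from the other 3 libraries, and chance gives about 1 in 20. The Ptpn1 level of the irradiated PBS library 1, 201 CPM, stood above the 176 to 179 CPM of its group. The Sbno2 level of the sham LPS library 4, 207 CPM, stood below the 272 to 282 CPM of its group. The Osmr value of the sham PBS library 4, 0.0495 CPM, was a single read where the other 3 libraries had none.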

How the results depend on the processing

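For the 10 genes, Osmr included although it passed the filter only through the irradiated LPS libraries, direction and side of the threshold were kept in 279 of 280 alternative values for LPS in irradiated rats, 260 of 279 for LPS in sham rats, 257 of 280 for irradiation with LPS, 251 of 278 for irradiation with PBS and 264 of 269 for the interaction. The test against a fold of 1.5 called 1142 genes for LPS in irradiated rats, 937 for LPS in sham rats, 1270 for irradiation with LPS, 831 for irradiation with PBS and 23 for the interaction, with 1, 2 and 0 members called in the last 3 by construction of a stricter test. In the interaction 171 genes were called, 438 with DESeq2, 98 without both irradiated libraries numbered 1 (fewer samples) and 103 to 191 leaving out single libraries, lowest without sham PBS 3. Limma voom called 0 members in the interaction, and the cause was not tested. Values near 0 changed sign: with library totals alone, Socs3 for irradiation with PBS (0.090), Stat3 for irradiation with LPS (0.0026) and Ptpn1 in the interaction (-0.053). Leaving out single libraries, Socs3 for irradiation with PBS ran from -0.28 to 0.034, Socs1 for irradiation with LPS from -0.26 to 0.51 and Ptpn1 in the interaction from -0.020 to 0.086. Members called over single libraries left out numbered 10 to 10 for LPS in irradiated rats, 9 to 10 for LPS in sham rats, 4 to 6 for irradiation with LPS and with PBS, and 1 in the interaction. These and the other member counts of this paragraph include Osmr. Library totals alone shifted the median of all genes by -0.12 for LPS in irradiated rats and 0.16 for irradiation with PBS, and the share of higher calls was 39.2% in place of 54%, 76.3% in place of 53.7%, and 28% in place of 48.5% in the interaction. Replicate numbers were not treated as pairs, since 10 of 24 same-numbered pairs, not all, correlated over 0.1 (range -0.0887 to 0.405). However, 28 of 48 library comparisons were best with their own number, each among the 4 libraries of another group. That is more than a random pick among 4 would give. It is a sign of pairing from the data and not from the design, and the main fit leaves it out. A replicate block gave 4446 genes and 10 members for LPS in irradiated rats, 4168 and 10 for LPS in sham rats, 3875 and 5 for irradiation with LPS, 3038 and 5 for irradiation with PBS, and 221 and 1 for the interaction; under it the calls of Stat2 in the interaction (adjusted p = 0.0539), Tyk2 for LPS in sham rats (0.0519) and Ptpn2 for irradiation with LPS (0.0514) were lost. Depth limits Osmr, Socs1, Cish and Pim1, which had few reads in PBS libraries.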
